A study of Homo sapiens with 7 samples.

Results

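The genes described here are citrate synthase (CS) and 8 further citrate cycle enzymes, namely IDH2, IDH3A, OGDH, SUCLG1, SDHA, SDHB, FH and MDH2. They are 9 of the 16044 genes with sense reads in the deposited 3′READS tables and were picked by symbol. CS was put on the list because its reads were higher in every knockdown (KD) library than in control, so its change is given as a description without a test. The questions are which poly(A) site (PAS) held the additional CS reads and whether the other enzymes changed in the same way. By symbol, 30 of 51882 sense PASs in the table of batch 1 belonged to the 9 genes, against 28 of 44595 in that of the double KD and 29 of 34849 in that of batch 2.

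3′READS sequences RNA up to its poly(A) tail, which places the cleavage and polyadenylation of each RNA, and reads with untemplated bases from the tail are called PAS-supporting (PASS) reads. HEK293, an established human embryonic kidney line, received either control siRNA (siCtrl) or an siRNA directed at Star-PAP (gene TUT1), PAPα (PAPOLA), PAPγ (PAPOLG) or both of the latter (siPAPα+γ). These are nuclear poly(A) polymerases, and there were 7 libraries. Batch 1 held 1 library each of siCtrl and the 3 single KDs, the double KD stood in a table with that same siCtrl, and in batch 2 there was 1 library each of siCtrl and siStar-PAP, made by the later 3′READS+ protocol. All 4 comparisons outside batch 2 therefore share 1 control library, and a low or high value in it enters each of them. Total RNA of a transfected culture cannot tell fewer RNA ends per cell from loss of the cells that hold them.

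The tables held 2362875 to 16245257 reads per library, which was 55.0 to 70.9% of the PASS reads. Levels are given as reads per 1000000 PASS reads (RPM), summed over the sense PASs of a gene. A read stands for 1 RNA end, so levels were not divided by length. TUT1 had 83 reads in siCtrl and 2 with siStar-PAP of batch 1, but stood at 6 and 4 reads in batch 2, too few to check the KD there. PAPOLA had 71 reads in siCtrl and 12 with siPAPα, and 78 and 8 reads in the table of the double KD. PAPOLG had 5 reads in siCtrl, 15 in the library labelled siPAPγ and 6 in that labelled as the double KD, so its reads check neither label for PAPγ. The study checked the KD of each single polymerase, PAPγ included, at the protein level by immunoblot. VIM and NEFL, which HEK293 cells express, had 340 to 2019 and 159 to 781 reads, and NEFM had 1 to 280. Of the markers of other cells, ALB and PTPRC had 0 reads in every library, KRT5 had 0 to 4 and COL1A1 had 0 to 12. The liver marker APOA1 had 44 reads in siCtrl and 7 to 13 in the KD libraries set against it, and 11 and 0 reads in batch 2, and its part in the results was not tested.

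The citrate cycle oxidises acetyl-CoA in the mitochondrial matrix and passes the electrons to the respiratory chain. CS joins acetyl-CoA and oxaloacetate to citrate, the isocitrate and oxoglutarate dehydrogenases release carbon dioxide, and succinyl-CoA ligase, succinate dehydrogenase, fumarase and malate dehydrogenase turn the product back into oxaloacetate. All of these enzymes are encoded in the nucleus, so each mRNA needs a poly(A) tail from a nuclear polymerase.

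The sequences before 6 PASs on which the results turn are printed below, from the hg19 genome (GRCh37), 5′ to 3′ on the strand of the gene and ending at the PAS. Capitals mark the hexamer AATAAA, the canonical poly(A) signal.
CS, 1383 nt after the stop codon, chr12:56665485-56665514, minus strand: aaaatgcaaAATAAAtgtttttattaacaa
CS, 70 nt after the stop codon, chr12:56666798-56666827, minus strand: agcctaAATAAAaagtatacttttgtttca
CS, 2129 nt after the stop codon, chr12:56664739-56664768, minus strand: caatatAATAAAgccaaattcacactgtca
MDH2, 203 nt after the stop codon, chr7:75695902-75695931, plus strand: gattttatttttcaaggtcccttctgtaaa
IDH3A, 603 nt after the stop codon, chr15:78461921-78461950, plus strand: agtgtgAATAAAaacttcagatccaagaaa
IDH3A, 1537 nt after the stop codon, chr15:78462855-78462884, plus strand: gttcaaagtAATAAAgaattccaaaactga
All 3 CS sites and both IDH3A sites carried AATAAA in the last 40 nt, as did 46.3% of all sense PASs of batch 1 and 51.3% of those of batch 2. No AATAAA or ATTAAA was found in the last 40 nt of the MDH2 site. The trimer ATA, counted on the strand of the gene between 100 and 41 nt before the site, occurred 0 times at the first and 2 times at the last of the printed CS sites, and 59.5% of all sense PASs of batch 1 had at least 1.

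The additional CS reads lay at 1 site, the PAS at the end of the annotated 3′UTR. It stood 1385 nt after the stop codon in the table of batch 1 and 1383 nt after it in the other tables, a difference of position within 1 cluster of cleavage. It had 13 reads in siCtrl of batch 1, 153 with siStar-PAP, 322 with siPAPα, 162 with siPAPγ and 235 with both siRNAs. In batch 2 it had 10 reads in siCtrl and 82 with siStar-PAP. Every KD library was thus above the siCtrl library of its batch, and all 5 KD libraries lay above both controls also as RPM, at 9.25, 12.8, 10.9, 12.5 and 19.3 against 1.14 and 1.98. The site made up 102%, 100%, 97.7% and 90.4% of the CS change with siStar-PAP, siPAPα, siPAPγ and the double KD, and 98.8% with siStar-PAP of batch 2. A share above 100% arises where other CS sites lost reads.

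**Figure D1:**
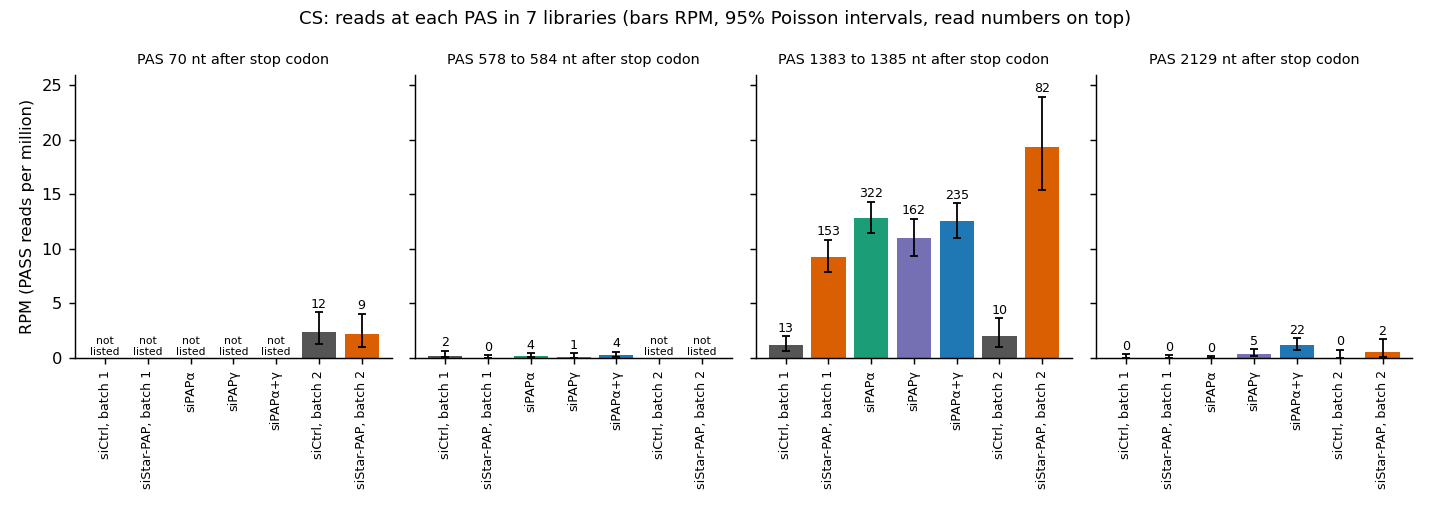
Reads of CS at each PAS in the 7 libraries, as RPM on the vertical axis with 95% Poisson intervals of the read number, which stands above each bar; panels order the sites by distance from the stop codon. The site 1383 to 1385 nt after the stop codon had 82 to 322 reads in the KD libraries and 10 to 13 in the siCtrl libraries, and no other site passed 22 reads.

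The other CS sites held few reads. The site 744 nt beyond the annotated end of the gene was at 0 in both siCtrl libraries, with siStar-PAP of batch 1 and with siPAPα, and had 5 reads with siPAPγ, 22 in the double KD and 2 with siStar-PAP of batch 2. It held 8.43% of CS reads in the double KD (Clopper-Pearson 95% interval 5.36 to 12.5%), whereas the 0 of 15 reads in siCtrl allowed up to 21.8%, so a difference in share was not detectable at this depth. A site 578 to 584 nt after the stop codon had 2 reads in siCtrl and 0 to 4 in the KD libraries.

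A proximal site 70 nt after the stop codon was listed in batch 2 alone, with 12 reads in siCtrl and 9 with siStar-PAP, or 2.38 and 2.12 RPM. Its level thus differed little while the distal site went from 1.98 to 19.3 RPM, and its share of CS reads went from 54.5% (32.2 to 75.6%) to 9.68% (4.52 to 17.6%). The 50 nt before this site occur at 2 places in the genome, the second at chr19:18142860-18142909 in a transcribed processed pseudogene, so that its reads may be shared. The 50 nt before the distal site occur at 1 place.

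Summed over its sites, CS had 15 reads (1.31 RPM, 95% Poisson interval 0.735 to 2.17) in siCtrl of batch 1. The KD libraries of that comparison had 153 reads (9.25 RPM) with siStar-PAP, 326 (13.0 RPM) with siPAPα, 168 (11.4 RPM) with siPAPγ and 261 (13.9 RPM) with both siRNAs. In batch 2 CS had 22 reads (4.36 RPM) in siCtrl and 93 (21.9 RPM) with siStar-PAP. The log2 ratios to siCtrl were 2.82 with siStar-PAP, 3.31 with siPAPα, 3.11 with siPAPγ, 3.40 in the double KD and 2.33 with siStar-PAP of batch 2. The counting intervals of these log2 ratios, 2.05 to 3.69 with siStar-PAP of batch 1 and 2.66 to 4.26 in the double KD, overlapped among all 5 comparisons, because the control had few reads. Since 4 of the ratios share the 15 control reads, this overlap does not compare those KD libraries with each other. Their RPM intervals were 7.84 to 10.8 with siStar-PAP, 11.6 to 14.5 with siPAPα, 9.70 to 13.2 with siPAPγ and 12.3 to 15.7 in the double KD. Intervals cover counting error only, since each condition had 1 library in a batch. The sources used here do not say whether PCR copies were removed, and copies that were kept would make the intervals too narrow. CS was above 2-fold in all 5 comparisons, as were 44 of the 6421 genes with more than 50 reads in each (0.685%), and none of these genes exceeded CS in all 5. CS was chosen for that pattern.

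The genes nearest to CS over the 5 log2 ratios, by Euclidean distance among 3750 genes with at least 50 reads in every library, were RPL13A (distance 1.83), RPL13AP5, SF3B14 (2.12), SNX17 (2.30) and PTDSS1 (2.31). CS itself was below that limit, with 15 and 22 reads in the siCtrl libraries, so genes with as few control reads were not searched. RPL13A encodes a protein of the large ribosomal subunit, and RPL13AP5 is its processed pseudogene, for which the tables gave the same values, so their reads cannot be told apart. SF3B14 belongs to the SF3b splicing complex, SNX17 to the sorting nexins, and PTDSS1 makes phosphatidylserine. The log2 ratios of RPL13A ran from 1.74 with siStar-PAP of batch 2 to 3.01 with siStar-PAP of batch 1. Since 4 of the ratios share a control, likeness includes that library.

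Of the other 8 enzymes, none that could be counted was higher past 2-fold in any comparison. A member was counted where it had more than 50 reads in the pair of libraries and its RPM ratio passed 2-fold. In siStar-PAP of batch 1, 0 of 5 countable members were higher and 1 was lower, where 4.44% of 10079 genes were higher and 26.2% lower. In siPAPα the numbers were 0 higher and 2 lower of 7, against 8.50% and 22.1% of all genes, and with siPAPγ 0 and 1 of 6, against 5.67% and 20.7%. The double KD had 0 higher and 1 lower of 6, against 6.98% and 26.5%, and siStar-PAP of batch 2 had 0 and 0 of 6, against 3.55% and 11.7%. The countable members below siCtrl past 2-fold were IDH3A with siStar-PAP, SDHA and FH with siPAPα, SUCLG1 with siPAPγ and IDH2 in the double KD, each in 1 comparison. Pairs below the read limit were left out of these numbers. Among them FH had ratios of 0.358, 0.286 and 0.248 with siStar-PAP of batch 1, siPAPγ and the double KD. IDH2 had 0.264 with siStar-PAP of batch 1 and SDHA 0.113 with siStar-PAP of batch 2. SDHB went the other way, with ratios of 4.14 to 5.79 in each comparison but that of batch 2. With TMM factors or DESeq2 size factors, which centre the genes, 0 countable members were lower past 2-fold with siStar-PAP in batch 1, siPAPα or siPAPγ. The split of all genes moved too. With DESeq2 size factors 12.2% were higher and 12.3% lower with siStar-PAP in batch 1, 14.9% and 13.9% with siPAPα, 10.9% and 11.5% with siPAPγ, and 14.9% and 14.9% in the double KD.

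**Figure D2:**
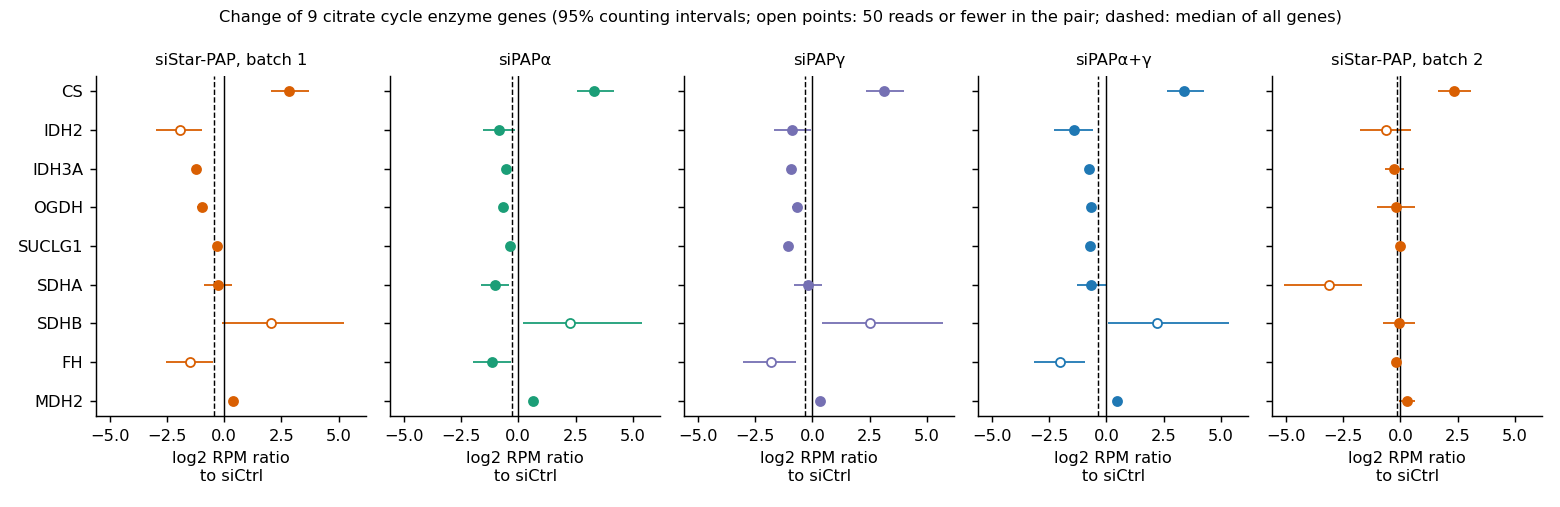
Log2 ratio of RPM to siCtrl (horizontal axis) for the 9 genes in the 5 comparisons, with 95% counting intervals; open points had 50 reads or fewer in the pair, and the dashed line is the median of all genes. CS lay between 2.33 and 3.40, MDH2 between 0.29 and 0.63, and most other filled points at or below 0.

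RPM ratios, which use PASS totals, were below 1 for most genes, and how far below depended on the scaling. With table totals, the all-gene median log2 ratio was −0.37 with siStar-PAP, −0.13 with siPAPα, −0.06 with siPAPγ and −0.11 in the double KD. It was −0.18 with siStar-PAP of batch 2. In RPM the median log2 ratios over all genes were −0.45, −0.26, −0.33, −0.38 and −0.16, in the same order. The medians of the countable members other than CS were −0.32, −0.68, −0.78, −0.69 and −0.12, in the same order. The median of countable members thus lay above that of all genes with siStar-PAP in both batches, in batch 2 by little. It lay below in the other KD libraries. This contrast depended on the read limit. With the pairs below the limit included, the medians of the 8 members were −0.65, −0.62, −0.78, −0.69 and −0.18, in the same order. Each of these lay below the median of all genes, in batch 2 by little, and the added pairs had few reads. Of the countable members, 3 of 5, 1 of 7, 2 of 6, 1 of 6 and 3 of 6 were above the median of all genes.

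Only siStar-PAP had a library in both batches. With edgeR (quasi-likelihood test, batch as a block, Benjamini-Hochberg adjustment), 1.23% of 11878 genes were called higher and 1.08% lower with siStar-PAP. None of the 8 members was called, and 0 had an unadjusted p below 0.05. DESeq2 called 0 of the 5 members to which it gave an adjusted p, and gave 1 member, MDH2, an unadjusted p below 0.05. A fit over all 7 libraries, which lets the lone libraries vary as siCtrl and siStar-PAP did between batches and places the double KD with batch 1, called 3.25% of 13771 genes higher and 2.48% lower with siPAPα, 1.34% and 1.03% with siPAPγ, and 3.31% and 3.79% in the double KD. It too called 0 of the 8 members in each contrast, and DESeq2 called 0 of the 5 with an adjusted p. By edgeR over the 7 libraries 1 member, MDH2, had an unadjusted p below 0.05 with siPAPα, in the double KD and also with siStar-PAP, and none had with siPAPγ. Both fits had 1 residual degree of freedom.

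The mitochondrial malate dehydrogenase MDH2, which regenerates the oxaloacetate that CS uses, was the sole other member with a higher RPM in every KD library. It had 318 RPM in siCtrl, 409 with siStar-PAP, 493 with siPAPα and 396 with siPAPγ, and 329 against 449 RPM in the table of the double KD, where more of its PASs were listed. In batch 2 it had 26.7 RPM in siCtrl and 32.7 with siStar-PAP. The log2 ratios were 0.36, 0.63, 0.32, 0.45 and 0.29, of which the last had a counting interval that included 0 (−0.06 to 0.64). All of them stayed above 0 with every scaling tried, but none passed 2-fold. The adjusted p by edgeR was 0.344 for siStar-PAP (log2 fold change 0.69, SE 0.34), 0.221 for the double KD (0.94), 0.257 for siPAPα (0.93) and 0.716 for siPAPγ (0.62).

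The MDH2 reads lay at the site 203 nt after the stop codon, printed above, which held 94.3% of them in siCtrl, 97.3% with siStar-PAP, 98.1% with siPAPα and 98.3% with siPAPγ. The rest of batch 1 was an intronic site, at chr7:75678365 on the plus strand, which had 206 reads in siCtrl, 181 with siStar-PAP, 233 with siPAPα and 101 with siPAPγ. As RPM this site went from 18.0 to 10.9, 9.29 and 6.83, and to 8.67 in the double KD. The intronic site was thus lower and the distal site higher in RPM in each of these libraries, with shares that changed by less than 10 percentage points. Batch 2 did not show this, with 3 reads at the intronic site in both libraries (0.594 RPM in siCtrl and 0.706 with siStar-PAP). A neighbouring intronic site had 3 and 7 reads there, and the share of the site at 203 nt went from 76.3% (68.2 to 83.2%) to 69.8% (61.4 to 77.3%).

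Of the enzymes of the first oxidative steps, the mitochondrial isocitrate dehydrogenases and OGDH were below siCtrl in RPM in each comparison, OGDH in batch 2 with 3 of 4 scalings alone. IDH3A, the catalytic subunit of the NAD-dependent isocitrate dehydrogenase, had 104 RPM in siCtrl, 43.7 with siStar-PAP, 70.9 with siPAPα and 54.1 with siPAPγ, 61.7 in the double KD, and 24.8 and 20.5 in batch 2. IDH3A lay below the median of all genes in 5 of 5 comparisons, by 0.11 to 0.81 on the log2 scale, and was called in none (adjusted p by edgeR 0.608 for siStar-PAP). In batch 1 and the double KD its site 1537 nt after the stop codon held 83.6% of reads in siCtrl and 85.8 to 89.7% in the KD libraries, so both IDH3A sites were lower there. IDH2, the NADP-dependent mitochondrial form, had 34 reads in siCtrl of batch 1 and 13, 41, 24 and 21 with siStar-PAP, siPAPα, siPAPγ and the double KD, and 22 and 12 in batch 2. Its log2 ratios were −1.92, −0.86, −0.88, −1.41 and −0.63, with few reads behind each.

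OGDH, the first component of the oxoglutarate dehydrogenase complex, had 43.2 RPM in siCtrl and 21.9, 26.9 and 27.0 with siStar-PAP, siPAPα and siPAPγ. It had 44.3 and 27.7 RPM in the double KD table and 6.14 and 5.41 in batch 2, and it was below the median of all genes in 5 of 5 comparisons. An intronic OGDH site at chr7:44647297 held 19.0% of reads in siCtrl, 18.7% with siStar-PAP, 18.5% with siPAPα and 25.3% (21.1 to 29.9%) with siPAPγ. In the table of the double KD it went from 18.6% (15.3 to 22.2%) to 28.4% (24.6 to 32.5%), since it had 8.23 RPM in siCtrl and 7.88 in the double KD while the distal site went from 35.0 to 19.7 RPM. In batch 2 the share of the intronic site went the other way, from 38.7% (21.8 to 57.8%) of 31 reads in siCtrl to 21.7% (7.46 to 43.7%) of 23 reads with siStar-PAP, with intervals that overlap.

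SUCLG1, the alpha subunit of succinyl-CoA ligase, had the most reads of the 9 genes in every library. All of them were at 1 PAS, 218 nt after the stop codon. It had 2586 RPM in siCtrl, 2067 with siStar-PAP, 2009 with siPAPα, 1231 with siPAPγ and 1584 with both siRNAs. In batch 2 it had 851 RPM in siCtrl and 844 with siStar-PAP, a log2 ratio of −0.01 with an interval of −0.08 to 0.05. The log2 ratio of −0.32 with siStar-PAP of batch 1 was above 0 with 2 of 4 scalings, whereas the ratio of −1.07 with siPAPγ stayed between −1.07 and −0.71 with all 4. Its adjusted p by edgeR was 0.718 with siPAPγ.

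Succinate dehydrogenase, the enzyme shared with the respiratory chain, was poorly covered. SDHB, its iron-sulfur subunit, had 2 reads in siCtrl of batch 1, 12 with siStar-PAP, 21 with siPAPα, 15 with siPAPγ and 15 with both siRNAs. From 2 control reads the ratio with siPAPα was 4.78 with a counting interval of 1.17 to 42.1, and with siStar-PAP it was 4.14 with an interval of 0.922 to 38.1. All 12 reads with siStar-PAP lay at an intronic site, at chr1:17351640 on the minus strand, and 0 at the 3′UTR site. In batch 2 SDHB had 41 and 33 reads, a log2 ratio of −0.06.

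SDHA, the flavoprotein subunit, had 44 to 52 reads in the libraries of batch 1 and the double KD, and 42 and 4 reads in batch 2. No more than 4 of these reads in any library lay in its annotated 3′UTR. They were spread over 18 PASs, with 1 to 48 reads a library in introns and 3 to 37 beyond the annotated end of the gene. The SDHA pseudogenes had 0 to 14 reads a library in sum. Its values, among them the log2 ratio of −3.14 in batch 2, are therefore uncertain as levels of SDHA mRNA. PAS shares were compared for members with several PASs and with reads above the read limit in the pair. Among these, all shares that moved by at least 10 points with siStar-PAP of batch 1, siPAPα and the double KD were of SDHA. They were 2 of 18, 5 of 21 and 2 of 20 PASs, where the background was 16.9% higher and 16.5% lower, 16.3% and 16.6%, and 16.4% and 16.2%. In siPAPγ IDH2 and SDHA together had 4 of 21 (background 14.3% higher and 14.3% lower). With siStar-PAP of batch 2 OGDH and SDHB had 4 of 15 (12.4% and 12.3%). Some pairs below the read limit, left out of these numbers, also moved, on few reads. With siStar-PAP of batch 1, an IDH2 site went from 0 to 46.2% and an intronic SDHB site from 0 to 100%. The SDHB 3′UTR site went from 100 to 66.7% with siPAPα and to 80.0% in the double KD.

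FH, or fumarase, had 1 PAS, 48 nt after the stop codon. It had 27 reads in siCtrl of batch 1, 14 with siStar-PAP, 27 with siPAPα, 10 with siPAPγ and 11 with both siRNAs, or 2.36 RPM in siCtrl and 0.585 to 1.08 in the KD libraries. In batch 2 it had 791 reads in siCtrl and 588 with siStar-PAP, or 157 and 138 RPM. The log2 ratio was −1.48 with siStar-PAP of batch 1, −1.13 with siPAPα, −1.81 with siPAPγ, −2.01 in the double KD and −0.18 with siStar-PAP of batch 2. With 14 reads the first had an interval of −2.53 to −0.50. The upper ends were −0.31 with siPAPα, −0.71 with siPAPγ and −0.95 in the double KD. All of these but batch 2 share the 27 control reads.

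**Figure D3:**
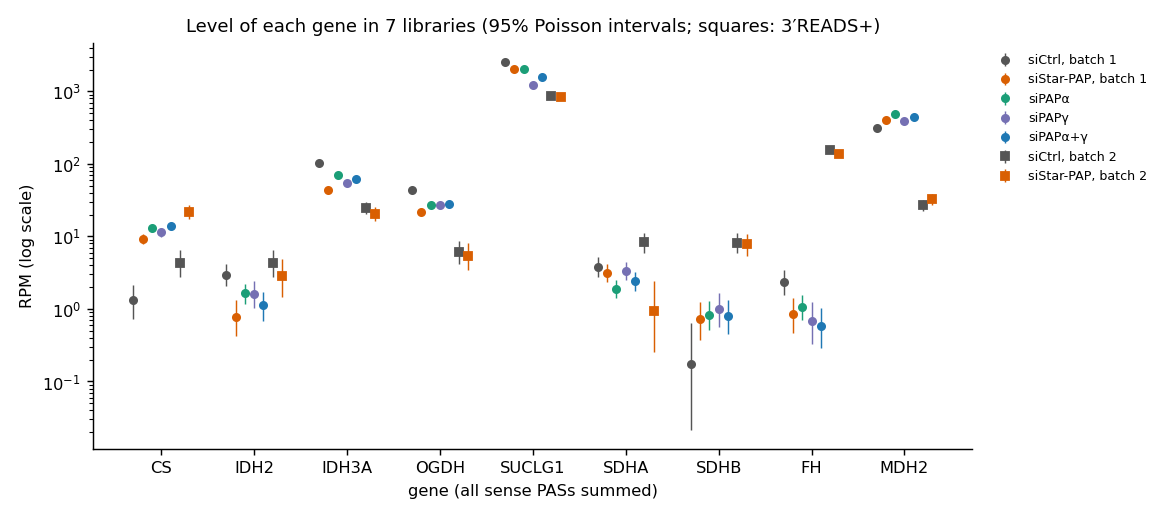
RPM of the 9 genes (log axis) in the 7 libraries, with 95% Poisson intervals; circles are 3′READS libraries and squares 3′READS+ libraries of batch 2. SUCLG1 was highest in every library, and the order of the other genes differed between protocols, with FH at 2.36 RPM in siCtrl of batch 1 and 157 RPM in that of batch 2.

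In siCtrl of batch 1 the order of levels was SUCLG1, MDH2 (318 RPM), IDH3A (104), OGDH (43.2), SDHA (3.85), IDH2 (2.98), FH (2.36), CS (1.31) and SDHB (0.175). The intervals of SDHA, IDH2 and FH overlapped, as did those of FH and CS. In siCtrl of batch 2 the order was SUCLG1 (851 RPM), FH (157), MDH2 (26.7), IDH3A (24.8), SDHA (8.32), SDHB (8.12), OGDH (6.14), IDH2 and CS (both 4.36). Neighbours from SDHA to CS had overlapping intervals, as had MDH2 and IDH3A. The ratio of batch 2 to batch 1 was 66.3 for FH, 46.4 for SDHB, 3.32 for CS, 0.238 for IDH3A, 0.142 for OGDH and 0.0841 for MDH2. Over all genes 61.1% of 9570 differed by more than 2-fold between the siCtrl libraries. Protocol, batch and culture cannot be told apart here.

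For IDH3A the difference between the siCtrl libraries lay at 1 site. The site 603 to 605 nt after the stop codon had 17.1 RPM in batch 1 and 21.0 in batch 2. The site at 1537 nt had 87.1 RPM in batch 1 and was not listed in the table of batch 2. MDH2, in contrast, kept its site at 203 nt as the most used, at 299.8 RPM in batch 1 and 20.4 in batch 2.

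**Figure D4:**
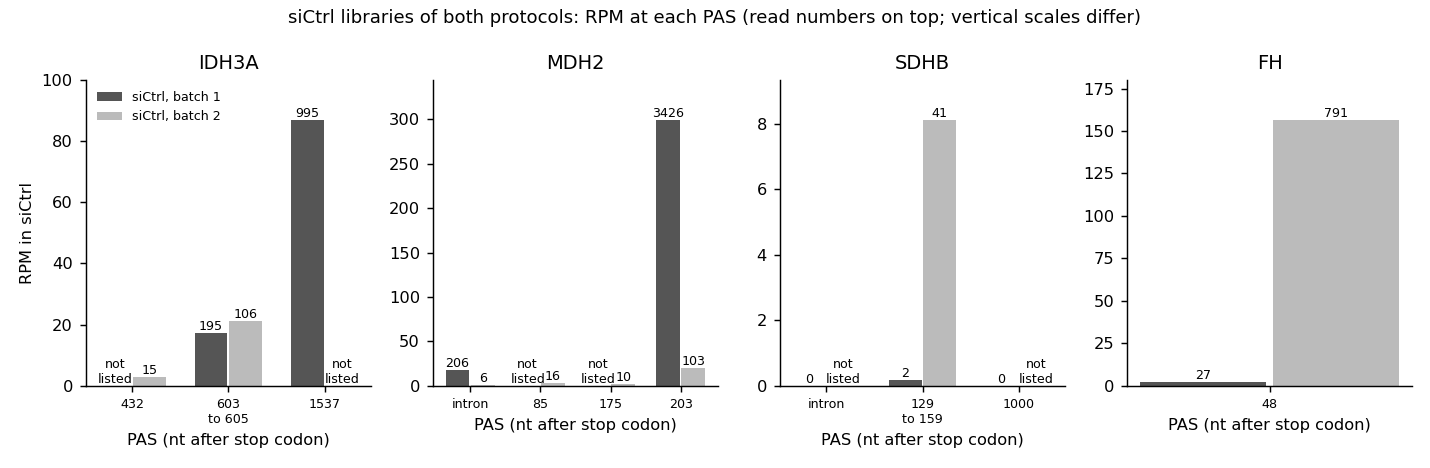
RPM at each PAS of IDH3A, MDH2, SDHB and FH in the siCtrl libraries of batch 1 (dark bars) and batch 2 (light bars), by distance from the stop codon, with the read number above each bar and vertical scales that differ between panels. IDH3A had like levels at its proximal site and 995 reads at a distal site that was not listed in batch 2, whereas FH had 27 reads in batch 1 and 791 in batch 2.

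Among 26 other genes of the pathway (further subunits, enzymes that feed the cycle, cytosolic forms, carriers and assembly factors), IDH1 was the sole gene called by edgeR. It was 1 of the 23 tested with siStar-PAP and 1 of 26 with siPAPα and in the double KD, and 0 were called with siPAPγ. Of all genes, 1.23%, 3.25%, 3.31% and 1.34% were called higher in these contrasts, in the same order. IDH1, the cytosolic NADP-dependent isocitrate dehydrogenase, had 71 reads in siCtrl of batch 1, 208 with siStar-PAP, 532 with siPAPα and 160 with siPAPγ, 70 and 278 in the double KD table, and 731 and 1424 in batch 2. It rose with siStar-PAP (log2 fold change 1.46, adjusted p by edgeR 0.0230), with siPAPα (2.13, 0.000307) and in the double KD (1.74, 0.00423), while with siPAPγ the adjusted p was 0.202 (1.16). No gene was called without the batch block, and the difference between these contrasts was not tested. In RPM, IDH1 thus stood above siCtrl where the mitochondrial IDH2 and IDH3A stood below it, but IDH2 and IDH3A were called in no contrast. In batch 2 the counting intervals of their log2 ratios included 0, at −1.77 to 0.45 for IDH2 and −0.69 to 0.13 for IDH3A. Of the 26 genes, 2 of 23 countable genes were higher and 2 lower past 2-fold with siStar-PAP of batch 1, 2 and 3 of 24 with siPAPα, 0 and 1 of 22 with siPAPγ, 2 and 3 of 24 in the double KD, and 1 and 0 of 17 with siStar-PAP of batch 2. The shares of all genes higher and lower were 4.44% and 26.2%, 8.5% and 22.1%, 5.67% and 20.7%, 6.98% and 26.5%, and 3.55% and 11.7%, in the same order. IDH1 was among the higher genes in all of these but siPAPγ. SDHD, the membrane anchor of succinate dehydrogenase, was the other higher gene with siStar-PAP of batch 1, siPAPα and the double KD, from 12 reads in siCtrl. The lower genes were ACLY and DLAT with siStar-PAP of batch 1, and ACLY, DLD and PC with siPAPα. With siPAPγ the lower gene was DLD, and in the double KD they were DLD, ME2 and SUCLA2. SDHD and the lower genes were named after their values were seen.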

How the data were processed

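RNA 3′ ends of 7 HEK293 libraries were measured by 3′READS, or by 3′READS+ in batch 2. The authors aligned the reads with Bowtie2 (genome hg19), retained unique alignments (MAPQ above 10) with at least 2 untemplated Ts, grouped cleavage sites within 24 nt into PASs, removed PASs of low abundance, and deposited counts of reads per PAS, not normalized. The version of Bowtie2 is not given in the sources used here. All columns were mapped to a library, so 0 were left without a sample. siCtrl occurs in 2 of the tables, where 32360 of 32475 shared PASs had identical counts (16 of 16 for the members), and it was counted once.

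Counts of sense rows were summed per gene and divided by PASS totals of the study to give RPM. Change was the ratio of RPM, with more than 50 reads in the pair and a change above 2-fold as the limits. The study set these limits for transcripts of single PASs and used other limits for whole genes. Poisson intervals of counts, Clopper-Pearson intervals of shares and exact binomial intervals of ratios were taken at the 95% level and cover counting error only. No source says that libraries of a condition came from separate cultures beyond the batch, so p-values measure the spread between these libraries. edgeR 4.0.16 (quasi-likelihood test with TMM factors after its default filter on expression, adjusted p below 0.05) was fitted with batch as a block, since the titles name the batch. The siCtrl and siStar-PAP libraries of batch 1 deviated together from the means of their groups (r = 0.894 over 8557 genes). This shows a difference between the batches, which are also the protocols, and cannot check a pairing within a batch. Sequences came from the GRCh37 genome and positions relative to the stop codon from its GENCODE annotation. The edgeR step was tested on simulated data with large changes in well-covered genes and a common dispersion, which cannot check members with few reads.

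The members and gene lists were chosen with earlier results of these data known. All members are named, and their PASs with at least 5% of a gene's reads in a library are described, those of SDHA and rare sites by range only. The alternatives were other scalings (table totals, TMM, DESeq2 size factors), 1 read added, antisense rows included, a limit of 1.5-fold, PASs within 50 nt merged, PASs of the 3′-most exon alone, RLE factors, no filter, no block, DESeq2, and leaving out members or a batch. R 4.3.3, DESeq2 1.42.0, Python 3.11.15, pandas 2.3.3 and scipy 1.17.1 were used.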

Additional observations from a re-analysis of the deposited data

How the results depend on the processing

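The number of countable members lower than siCtrl depended on the limit and on the scaling. With a limit of 1.5-fold it was 2 with siStar-PAP of batch 1, 4 with siPAPα, 4 with siPAPγ and 5 in the double KD, where 43.2%, 36.5%, 37.7% and 41.5% of all genes were lower past that limit, and 1 member was higher with siPAPα (17.2% of all genes). With the totals of the tables it was 1 with siPAPα (18.7% of all genes lower) and 0 with siPAPγ (13.3%). With TMM factors it was 0 with siStar-PAP of batch 1 (14.3%), siPAPα (15.4%) and siPAPγ (12.1%), and with DESeq2 size factors 0 in these (12.3%, 13.9% and 11.5%) and in the double KD (14.9%). Without the replicate block edgeR called 0 genes in any contrast, with 14 higher and 40 lower with siStar-PAP at an unadjusted p below 0.05, and so 0 members as in the fit with the block, while the call of IDH1 was lost. DESeq2 called 193 genes higher and 83 lower with siStar-PAP, and edgeR with no filter 212 and 232, against 146 and 128. Fits of a single batch leave no residual degrees of freedom and give no test. Of 590 alternative values 514 were labelled as kept or within the error, and 76 as moved. This tally cannot measure robustness, since many of its labels could hardly have come out otherwise. Values that left out a batch were labelled as kept by rule. Fold changes in the other fits counted as kept unless an adjusted p was below 0.05. Medians counted as kept within 1.05 on the log2 scale, the SD between the batches of siStar-PAP. Depth limits SDHB, FH in batch 1, IDH2 and the ratios of CS, which had 15 and 22 reads in the siCtrl libraries.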
